A study of Homo sapiens with 6 samples.

Results

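The Eph receptors and their ephrin ligands were examined in HCT116 cells with and without the histone methyltransferase MLL4. The set was chosen by gene symbol and holds 10 genes of the 59715 in the deposited count table, 6 receptors (EPHA1, EPHA2, EPHA4, EPHB2, EPHB3 and EPHB4) and 4 ligands (EFNA1, EFNA4, EFNB1 and EFNB2). HCT116 is an established human colorectal carcinoma line. Poly(A) RNA was sequenced in 3 libraries labelled MLL4WT, from cells with MLL4 intact, and 3 labelled MLL4KO, from cells in which MLL4 was knocked out. Both lines were grown in the same serum-containing medium, and the labels name no treatment. The labels do not say how the knockout was made, whether the line is 1 clone, or whether replicate libraries are separate cultures, so the p-values measure the spread between these libraries. Of the 10 genes, 9 had enough counts to be tested, and EPHA4 did not.

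Eph proteins form the largest family of receptor tyrosine kinases, and ephrins are ligands that stay attached to the cell that makes them, so the pathway reads contact between neighbouring cells. Signals run forward into the cell with the receptor and in reverse into the cell with the ligand. A-type ephrins are tethered to the membrane by a lipid anchor and bind mainly EPHA receptors, whereas B-type ephrins span the membrane, carry a cytoplasmic tail that binds PDZ proteins, and bind mainly EPHB receptors. In the intestinal crypt, EPHB2 and EPHB3 are known as targets of beta-catenin and TCF and, with ephrin-B ligands, keep proliferating and differentiated cells in their own zones, while EPHA2 is often abundant in epithelial tumours.

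Library totals ranged from 6829400 to 19736751 counts, with MLL4WT replicate 1 the shallowest. RNA of KMT2D, which encodes MLL4, lay between 231 and 240 CPM in MLL4WT libraries and between 225 and 243 in those labelled MLL4KO. The labels do not say which part of KMT2D was altered, so a count over the whole gene checks nothing about the genotype. Levels are in CPM, counts relative to the scaled size of the library, and a ± value is the SD with n = 3. Changes run from MLL4WT to MLL4KO, and a gene is said to have risen or fallen where the edgeR quasi-likelihood test gave a Benjamini-Hochberg adjusted p under 0.05 over all 14543 tested genes. Of the 10 colorectal epithelial markers listed, EPCAM, KRT8, KRT18, KRT19, CDH1 and CDX2 were measured, KRT20, VIL1 and LGALS4 were too low to be tested and CDX1 had no count. Their summed level was lower in MLL4KO (1082 to 1106 CPM) than in MLL4WT (1607 to 1670 CPM). EPCAM and the 3 keratins KRT8, KRT18 and KRT19 fell (edgeR adjusted p at most 0.000334), while CDH1 and CDX2 were not called (log2 0.04 and 0.10, edgeR adjusted p = 0.864 and 0.341). What part this has in the results on Eph genes was not tested. Summed markers of fibroblasts (8 genes, 30.2 to 32.6 CPM in MLL4WT and 31.6 to 36.0 in MLL4KO), immune cells (6 genes, 2.38 to 6.55 and 3.82 to 4.45) and endothelium (5 genes, 1.90 to 2.19 and 3.23 to 3.94) were low in both genotypes. Within the fibroblast list COL1A1 and PDGFRB rose and COL3A1 fell (log2 0.28, 0.65 and -2.79, edgeR adjusted p = 0.0106, 0.0229 and 1.6e-05), while COL1A2 was not called.

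Of the 9 tested genes, 5 rose, 1 fell and the other 3 (EPHB4, EFNA1 and EFNA4) missed the threshold. The 1 that fell was EPHA2, the receptor with the highest CPM in MLL4WT, and 4 of the 5 that rose were of the B type, EPHB2, EPHB3, EFNB1 and EFNB2. The fifth, EPHA1, rose by a small amount that most alternative analyses did not call. Among all 14543 tested genes 41.4% passed, 19.8% having risen and 21.6% having fallen. The median log2 fold change of the 9 genes was 0.32 and that of all tested genes was 0.00. With total counts in place of scaled libraries, the balance over all genes turned from 2885 risen and 3136 fallen to 3706 and 2394, with upper quartile factors it was 3561 and 2475, and the 9 genes kept 5 that rose and 1 that fell under both. MLL4WT and MLL4KO libraries did not overlap in 7 of the 9 genes, against 52.5% of all tested genes. Changes of at least 1.5-fold that passed were rises in EPHB2 and EPHB3 and a fall in EPHA2, 2 and 1 of the 9, against 6.56% of all tested genes for rises and 5.35% for falls.

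**Figure D1:**
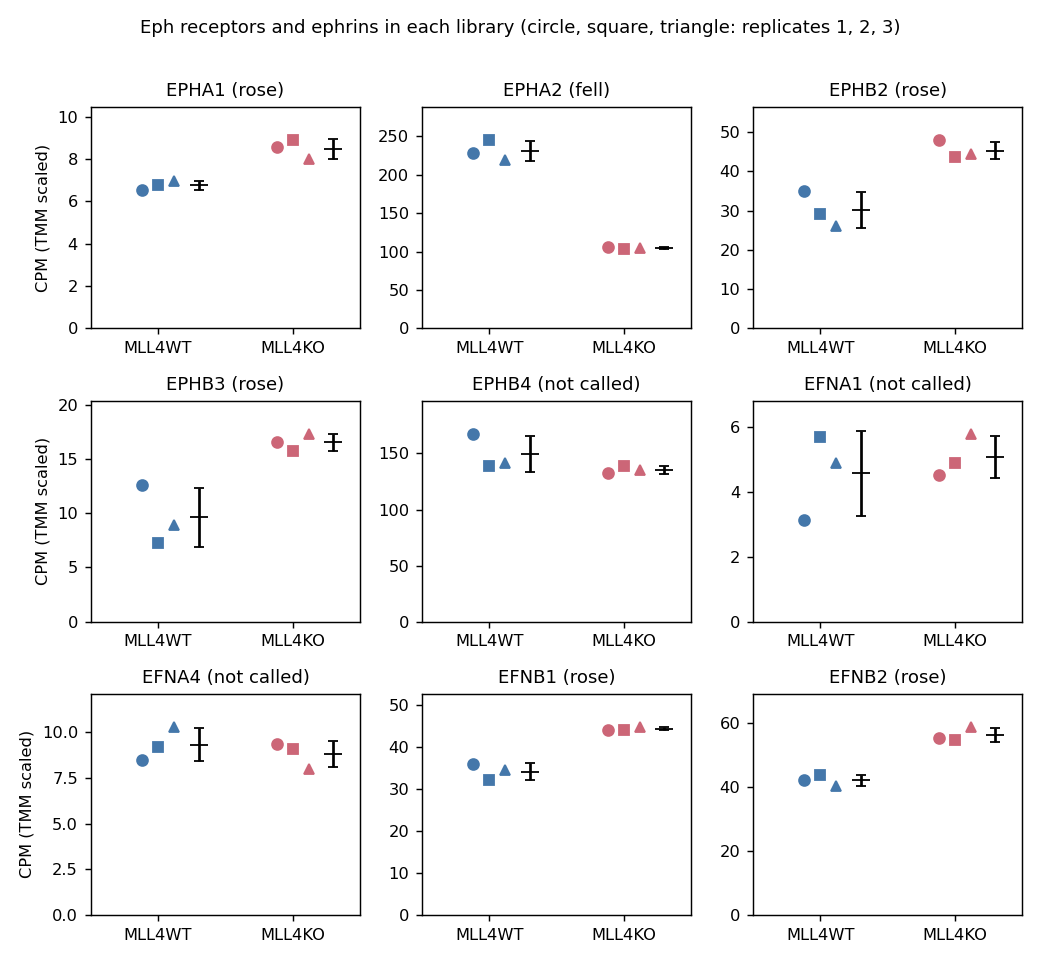
CPM of the 9 tested genes in each of the 6 libraries (vertical axes from 0, 1 panel per gene). Symbols are single libraries and the bars beside them are mean ± SD over 3 libraries. EPHA2 lies between 219 and 245 CPM in MLL4WT and between 103 and 106 CPM in MLL4KO, while EPHB2, EPHB3, EFNB1 and EFNB2 are higher in every MLL4KO library.

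The windows of 250 bases before the RefSeq start sites (GRCh38.p14) are shown for EPHA2, EPHB2 and EPHB3, the genes of the set that passed the test with at least a 1.5-fold change, so that the promoter of the gene that fell can be read against those of the genes that rose. All 10 genes had an entry. The windows are chr1:16156070-16156319 on the minus strand for EPHA2, chr1:22710589-22710838 on the plus strand for EPHB2 and chr3:184561535-184561784 on the plus strand for EPHB3. Capitals mark matches to the motifs searched on both strands, which were the cAMP response element (TGACGTCA), the AP-1 site (TGANTCA), the TCF/LEF core (CTTTGAT), the CCAAT box (CCAAT), the GC box (GGGCGG) and the p53 half-site (RRRCWWGYYY).
EPHA2: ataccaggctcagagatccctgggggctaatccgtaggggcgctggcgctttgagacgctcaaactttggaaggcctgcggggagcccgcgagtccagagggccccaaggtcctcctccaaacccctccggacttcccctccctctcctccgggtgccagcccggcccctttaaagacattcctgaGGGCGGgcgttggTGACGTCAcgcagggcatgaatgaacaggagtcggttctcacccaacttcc
EPHB2: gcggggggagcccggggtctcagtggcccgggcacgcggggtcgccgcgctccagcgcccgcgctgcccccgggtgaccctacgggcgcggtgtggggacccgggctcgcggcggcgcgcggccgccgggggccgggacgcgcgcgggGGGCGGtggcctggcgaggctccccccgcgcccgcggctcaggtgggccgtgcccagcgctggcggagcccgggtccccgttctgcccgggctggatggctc
EPHB3: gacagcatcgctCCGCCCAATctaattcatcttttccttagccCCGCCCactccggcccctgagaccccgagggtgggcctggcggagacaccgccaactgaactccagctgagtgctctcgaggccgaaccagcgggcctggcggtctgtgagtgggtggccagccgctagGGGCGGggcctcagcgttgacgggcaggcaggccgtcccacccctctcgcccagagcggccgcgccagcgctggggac

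The EPHA2 window holds a cAMP response element whose first base lies 51 bases before the start. That motif is found in 1.65% of all 35116 windows of the same length, and among the 10 genes' windows only that of EPHA2 has it. Whether this or any other motif bears on the changes was not tested. A GC box, found in 42.6% of all windows, occurs once in the EPHA2 window 64 bases before the start, once in that of EPHB2 and 3 times in that of EPHB3. The EPHB3 window also has a CCAAT box (32.0% of all windows), which overlaps a GC box. None of the 10 genes' windows matched the AP-1 (6.57% of all windows), TCF/LEF (2.26%) or p53 half-site (5.57%) motif, which says only that these letters are absent there. The EPHB2 window is 84.8% G and C, that of EPHB3 70.0% and that of EPHA2 63.2%, against a median of 58.0% over all windows.

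Among the A-type receptors, EPHA2, a receptor of epithelial cells, fell in every knockout library. In RNA from bulk cultures, fewer cells of a type and less RNA per cell cannot be told apart. EPHA2 (chromosome 1, 16124337 to 16156087) was at 228, 245 and 219 CPM in MLL4WT replicates 1 to 3 and at 106, 103 and 105 CPM in MLL4KO replicates 1 to 3. The groups lay far apart, and the 3 MLL4KO libraries were nearly equal. The fall was 2.21-fold, from 231 ± 12.9 to 105 ± 1.49 CPM (log2 -1.14 ± 0.05 SE, edgeR adjusted p = 1.47e-08). Column names carry codes of the form used for flow cells. Within the code that held 1 library of each genotype the log2 difference was -1.06. Within the code that held 1 MLL4WT and 2 MLL4KO libraries it was -1.23. MLL4WT replicate 1 was alone in its code, so the within-code differences given here and below leave that library out. The antisense gene EPHA2-AS1 overlaps the EPHA2 locus without sharing annotated exons and gave 33 counts in MLL4WT and 16 in MLL4KO, against 8924 and 5375 for EPHA2.

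EPHA1, the founding member of the receptor family (chromosome 7, 143390289 to 143408892), was at 6.54, 6.79 and 6.95 CPM in MLL4WT and 8.56, 8.87 and 7.98 CPM in MLL4KO. All MLL4KO libraries lay above all MLL4WT libraries by a small margin. It rose 1.25-fold (log2 0.32 ± 0.12 SE, edgeR adjusted p = 0.0469), and 11 of 17 alternatives gave the same direction without passing the threshold, among them the DESeq2 Wald test (log2 0.33, adjusted p = 0.179) and the omission of any 1 library (log2 0.29 to 0.36). EPHA1 shares 82 exonic bases with ZYX, a more abundant gene on the opposite strand that fell by 0.22 on the log2 scale (edgeR adjusted p = 0.0184), and without strand the reads of such a stretch cannot be assigned. EPHA4, a receptor that binds ephrins of both types (chromosome 2, 221418027 to 221574202), had 2 counts in MLL4WT replicate 3, 2 in MLL4KO replicate 1 and 0 in the other 4 libraries. At this depth 3 counts correspond to between 0.149 and 0.446 CPM per library, so a difference in EPHA4 was not detectable.

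The B-type receptors EPHB2 and EPHB3 rose, and EPHB4 did not pass the test. EPHB2, a guidance and crypt-positioning receptor (chromosome 1, 22710839 to 22921500), was at 35.1, 29.2 and 26.1 CPM in MLL4WT and 47.8, 43.6 and 44.3 CPM in MLL4KO. The lowest MLL4KO library lay above the highest MLL4WT library, which was replicate 1. The rise was 1.54-fold, from 30.1 ± 4.57 to 45.3 ± 2.26 CPM (log2 0.63 ± 0.09 SE, edgeR adjusted p = 0.000219), with within-code differences of 0.88 and 0.59.

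EPHB3, its close relative in the crypt (chromosome 3, 184561784 to 184582409), was at 12.6, 7.27 and 8.96 CPM in MLL4WT and 16.6, 15.7 and 17.4 CPM in MLL4KO. MLL4WT replicate 1 was again the highest of its group, and the groups did not overlap. The rise was 1.80-fold (log2 0.85 ± 0.15 SE, edgeR adjusted p = 0.00092), with within-code differences of 0.89 and 1.18. Omission of 1 library gave log2 values from 0.69, without MLL4WT replicate 2, to 1.02, without MLL4WT replicate 1.

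EPHB4, the main receptor for ephrin-B2 and known for its part in separating arteries from veins (chromosome 7, 100802565 to 100827521), was at 168, 139 and 142 CPM in MLL4WT and 132, 139 and 135 CPM in MLL4KO. MLL4WT replicate 1 stood above the other 5 libraries, and the nearest libraries of the genotypes were almost equal. The log2 fold change was -0.13 ± 0.07 SE with a 95% interval of -0.28 to 0.01 (edgeR adjusted p = 0.126), and omission of 1 library gave values from -0.18, without MLL4WT replicate 2, to -0.05, without MLL4WT replicate 1. EPHB4 shares 69 exonic bases with SLC12A9 on the other strand.

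The A-type ligands of the set, EFNA1 and EFNA4, did not pass the test. EFNA1, a ligand of EPHA2 (chromosome 1, 155127460 to 155134857), was at 3.12, 5.69 and 4.88 CPM in MLL4WT and 4.53, 4.87 and 5.78 CPM in MLL4KO. The genotypes overlapped, and the shallowest library, MLL4WT replicate 1, was the lowest with 21 counts. The log2 fold change was 0.08 ± 0.20 SE with a 95% interval of -0.35 to 0.50 (edgeR adjusted p = 0.771), and omission of 1 library gave values from -0.06, without that one, to 0.26, without MLL4WT replicate 2. EFNA4, another lipid-anchored ephrin (chromosome 1, 155063731 to 155069553), was at 8.47, 9.19 and 10.3 CPM in MLL4WT and 9.35, 9.06 and 7.98 CPM in MLL4KO. The libraries of both genotypes intermingled, with a log2 fold change of -0.10 and a 95% interval of -0.36 to 0.16 (edgeR adjusted p = 0.545). EFNA4 shares 189 exonic bases with the readthrough gene EFNA4-EFNA3, which is listed at 0 in all 6 libraries.

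Both B-type ligands of the set rose by similar amounts. EFNB1, a transmembrane ephrin on the X chromosome (68828997 to 68842147), was at 35.8, 32.0 and 34.5 CPM in MLL4WT and 44.1, 44.1 and 44.7 CPM in MLL4KO. The MLL4KO libraries were almost identical and all higher. The rise was 1.31-fold, from 34.1 ± 1.95 to 44.3 ± 0.351 CPM (log2 0.39 ± 0.06 SE, edgeR adjusted p = 0.00048), with within-code differences of 0.35 and 0.47. EFNB2, the partner of EPHB4 (chromosome 13, 106489731 to 106535662), was at 42.1, 43.8 and 40.4 CPM in MLL4WT and 55.4, 54.7 and 58.7 CPM in MLL4KO. Again each MLL4KO library exceeded each MLL4WT library. The rise was 1.34-fold, from 42.1 ± 1.69 to 56.2 ± 2.16 CPM (log2 0.42 ± 0.06 SE, edgeR adjusted p = 0.000172), with within-code differences of 0.46 and 0.37. EFNB2 shares 1313 exonic bases with an annotated antisense gene that has no entry in the deposited counts, so its reads could not be checked.

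The family has 12 further genes, of which 5 were tested, 2 rose and none fell, beside 19.8% risen and 21.6% fallen of all tested genes. EPHB6, a B-type receptor whose kinase domain is inactive (chromosome 7, 142855061 to 142871094), was at 9.21, 7.89 and 8.62 CPM in MLL4WT and 18.8, 18.1 and 17.4 CPM in MLL4KO. It rose 2.14-fold (log2 1.09 ± 0.10 SE, edgeR adjusted p = 4.61e-06), with no overlap between the groups. EFNA5, an A-type ligand that also binds EPHB2 (chromosome 5, 107376889 to 107670895), was at 6.24, 5.42 and 4.54 CPM in MLL4WT and 12.4, 11.6 and 10.9 CPM in MLL4KO. It rose 2.23-fold (log2 1.16 ± 0.13 SE, edgeR adjusted p = 3.50e-05), also without overlap. EPHA10, another receptor with an inactive kinase domain, and the ligands EFNA2 and EFNA3 did not pass the test (log2 -0.17, 0.20 and -0.04, edgeR adjusted p = 0.294, 0.216 and 0.775). With trends of GC content and gene length taken out, EFNA2 did pass (log2 0.40, edgeR adjusted p = 0.0274). The other 7 (EPHA3, EPHA5, EPHA6, EPHA7, EPHA8, EPHB1 and EFNB3) had at most 34 counts over all 6 libraries and were not tested, with EPHA3 and EPHA6 at 0 in every library.

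Counted over the whole family, 5 of 6 tested genes with an EPHB or EFNB symbol rose and none fell, the exception being EPHB4, at a median log2 fold change of 0.52. Of 8 tested EPHA and EFNA genes 2 rose and 1 fell, at a median of 0.02. Among all tested genes 19.8% rose and 21.6% fell. No test of the difference between the A and B types was made.

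**Figure D2:**
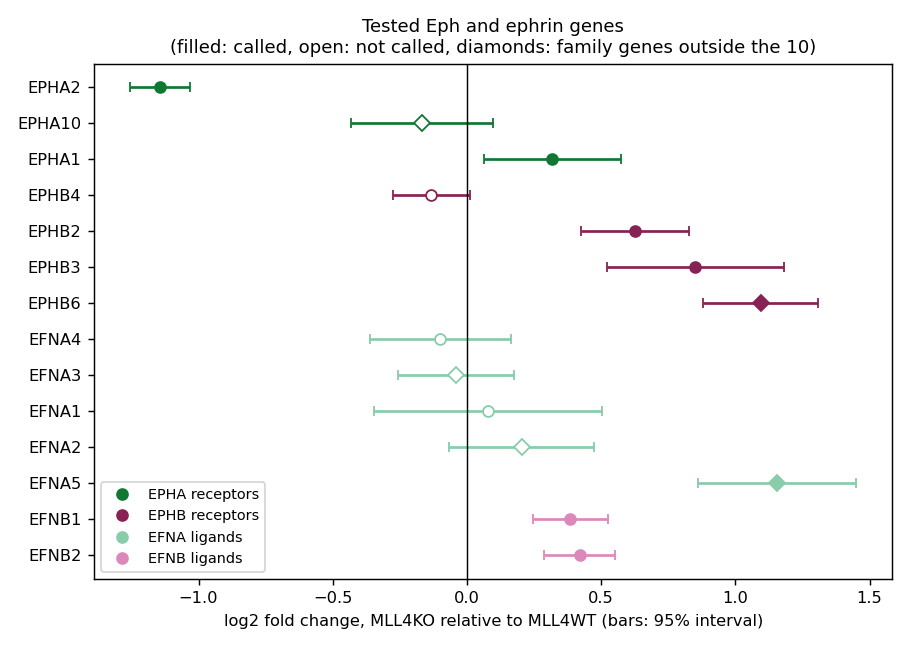
Log2 fold change of the 14 tested family genes, MLL4KO relative to MLL4WT (horizontal axis), with bars for 95% intervals and colours for the 4 classes. Filled symbols passed the test, and diamonds are family genes outside the 10. EPHA2 at -1.14 is the only gene with its interval wholly below 0, and EPHB2, EPHB3, EPHB6, EFNA5, EFNB1, EFNB2 and EPHA1 have theirs above 0.

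To compare levels between genes, CPM was divided by the exonic length of each gene in kb. EPHA2 led in both genotypes, at 55.5 ± 3.09 CPM per kb in MLL4WT and 25.1 ± 0.359 in MLL4KO. EPHB4 came next, at 23.2 ± 2.46 and 21.0 ± 0.506. The 2 receptors were well separated in MLL4WT, whereas in MLL4KO the lowest EPHA2 library was at 24.7 CPM per kb and the highest EPHB4 library at 21.6. With the length of the longest transcript in place of all exons, the order in MLL4KO turned, with EPHB4 at 26.7 and EPHA2 at 26.4 CPM per kb.

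The ligands EFNB1 (10.3 ± 0.589 CPM per kb in MLL4WT and 13.4 ± 0.106 in MLL4KO), EFNB2 (8.38 ± 0.337 and 11.2 ± 0.430) and EFNA4 (7.37 ± 0.722 and 6.96 ± 0.573) followed in that order in both genotypes, EFNB2 and EFNA4 overlapping in MLL4WT and not in MLL4KO. Below them in MLL4WT stood EPHB2 (2.40 ± 0.365 CPM per kb), EPHB3 (2.12 ± 0.605), EFNA1 (1.80 ± 0.518) and EPHA1 (1.43 ± 0.0439), each overlapping its neighbour in that order. In MLL4KO, EPHB3 (3.65 ± 0.181) and EPHB2 (3.62 ± 0.181) did not differ beyond their spread and lay above EFNA1 (1.99 ± 0.256) and EPHA1 (1.79 ± 0.0960), which overlapped each other. EPHA4 was last of the 10, at 0.0152 CPM per kb in its highest library. Family genes outside the 10 were left out of this order. Among them, EFNA3 (10.3 ± 1.37 CPM per kb in MLL4WT and 9.81 ± 0.787 in MLL4KO) and EFNA2 (9.34 ± 1.11 and 10.7 ± 0.785) had levels in the range of EFNB1, EFNB2 and EFNA4.

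**Figure D3:**
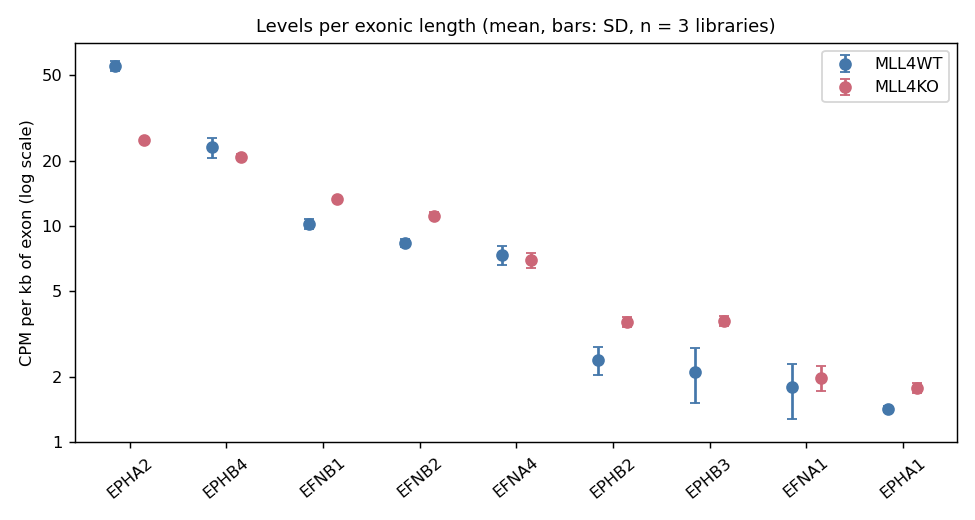
Level per exonic length of the 9 tested genes (CPM per kb, log axis), as mean with SD bars over 3 libraries for each genotype. EPHA2 is at 55.5 CPM per kb in MLL4WT and 25.1 in MLL4KO, where EPHB4 is at 21.0, and the B-type ligands EFNB1 and EFNB2 are higher in MLL4KO at 13.4 and 11.2.

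Added up on the same per-length scale, the 6 receptors summed to 84.7 ± 3.89 CPM per kb in MLL4WT and 55.2 ± 0.103 in MLL4KO, and the 4 ligands to 27.8 ± 0.695 and 33.5 ± 0.248. These sums are a description without a test. EPHA2 made up 65.6% ± 3.08 of the receptor sum in MLL4WT and 45.5% ± 0.579 in MLL4KO. The sum of the B-type receptors was 27.8 ± 3.38 and 28.3 ± 0.241 CPM per kb, most of it EPHB4. The sum of the B-type ligands EFNB1 and EFNB2 was 18.7 ± 0.453 and 24.6 ± 0.535, and that of the A-type ligands EFNA1 and EFNA4 9.17 ± 1.11 and 8.96 ± 0.318. Family genes outside the 10 are not in these sums. Among them are the A-type ligands EFNA3 (10.3 CPM per kb in MLL4WT and 9.81 in MLL4KO), EFNA2 (9.34 and 10.7) and EFNA5 (0.947 and 2.04). The sums therefore do not rank A-type against B-type ligands. Also left out are the receptors EPHB6 (1.61 CPM per kb in MLL4WT and 3.40 in MLL4KO) and EPHA10 (1.32 and 1.14). The receptor sums and the EPHA2 share thus cover only the 6 receptors of the set.

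Ratios of 2 genes within a library do not depend on how libraries are scaled, and 6 pairs were compared. With 3 libraries against 3 the exact two-sided permutation test cannot give a p below 0.1, which is 0.15 after Benjamini-Hochberg adjustment over the 6 pairs here, so no pair could pass. The count ratio of EPHA2 to its ligand EFNA1 was 52.1 in MLL4WT and 20.8 in MLL4KO (geometric means), a log2 difference of -1.33 without overlap between the groups (exact p = 0.1). EPHA2 to EPHA1 went from 34.1 to 12.4, a log2 difference of -1.47, also without overlap (exact p = 0.1). Both ratios were lower in every MLL4KO library than in any MLL4WT library.

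For EPHB4 to its ligand EFNB2 the ratio went from 3.54 to 2.41, with log2 ratios of 1.99, 1.67 and 1.81 in MLL4WT and 1.26, 1.34 and 1.20 in MLL4KO (exact p = 0.1). The groups did not overlap, and the ratio of receptor to ligand was the lower in MLL4KO. EPHB2 to EFNB1 differed by 0.22 on the log2 scale (exact p = 0.1). Its groups did not overlap but nearly met, with log2 ratios of -0.030 in MLL4WT replicate 1 and -0.014 in MLL4KO replicate 2. EPHB2 to EPHB3 (log2 difference -0.22, exact p = 0.3) and EFNA4 to EFNA1 (-0.27, exact p = 0.4) overlapped between the genotypes.

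**Figure D4:**
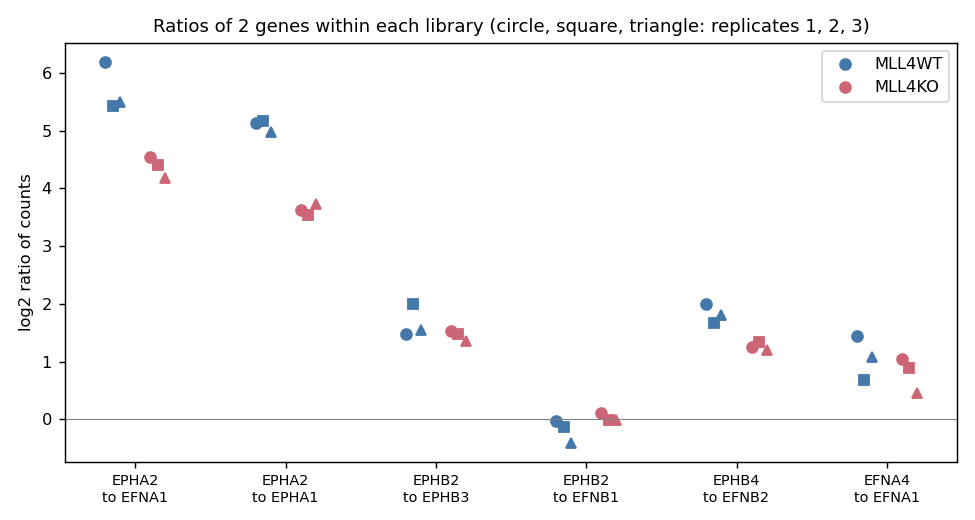
Log2 ratio of the counts of 2 genes within each library for 6 pairs. Symbols are single libraries of MLL4WT (blue) and MLL4KO (red). The 2 pairs with EPHA2 differ by -1.33 and -1.47 in MLL4KO, EPHB4 to EFNB2 by -0.56, and EPHB2 to EPHB3 overlaps.

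The positions of the genes were compared with the changes around them, using the 5 nearest tested genes on each side. These stretches differ in length, from 190 kb around EFNA1 to 7002 kb around EFNB2. The counts stand beside 19.8% risen and 21.6% fallen of all tested genes. Around EPHA2, 1 of 10 neighbours fell and none rose (median log2 -0.04). Around EPHB2, 5 rose and 1 fell (median 0.11), and around EPHB3, 3 rose and 2 fell (median 0.11). Around EFNB2, 3 rose and 1 fell (median 0.08), and around EFNB1 it was 2 and 2 (median 0.12). Around EPHB4, 1 fell and none rose (median -0.08), around EPHA1, 2 rose and 3 fell (median 0.21), and around EPHA4, 6 rose and 1 fell (median 0.27).

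EFNA4, EFNA3 and EFNA1 stand in a row on chromosome 1, and none of the 3 passed the test, while 5 of the 10 neighbours of EFNA4 and 4 of those of EFNA1 fell and none rose. The neighbour sets largely coincide, ZBTB7B, ADAM15 and KRTCAP2 being counted as fallen in both, and each set includes the other EFNA genes of the row. Among all tested genes 21.6% fell. ADAM15, a metalloprotease gene next to EFNA4, fell 1.71-fold, MUC1, a mucin gene beyond EFNA1, fell 1.67-fold, and FLAD1, an FAD synthase gene, fell 1.46-fold (edgeR adjusted p = 4.0e-05, 0.00915 and 7.1e-05). CKS1B (1.20-fold), ZBTB7B (1.30-fold) and KRTCAP2 (1.28-fold) also fell (edgeR adjusted p between 0.000624 and 0.000871), and DCST1-AS1, SLC50A1, DPM3 and TRIM46 did not pass the test.

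Of 27 listed genes that carry Eph signals next to the receptor, 25 were tested, of which 8 rose, 1 fell and 16 missed the threshold (median log2 0.10), where 19.8% of all tested genes rose and 21.6% fell. Scaling by total counts gave 13 that rose. CRKL, an adaptor, rose 1.22-fold from 161 ± 10.3 to 196 ± 1.91 CPM, FYN, a Src-family kinase, rose 1.44-fold from 13.2 ± 1.39 to 19.3 ± 1.10 CPM, and INPPL1, the lipid phosphatase that binds EPHA2, rose 1.25-fold, MLL4WT standing at 82.2 ± 6.16 and MLL4KO at 102 ± 3.12 CPM (edgeR adjusted p between 0.000709 and 0.000871). SH2D3A, an SH2 adaptor, showed a 2.03-fold fall, MLL4WT standing at 41.0 ± 0.743 and MLL4KO at 20.1 ± 2.40 CPM (edgeR adjusted p = 2.35e-06).

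Proteins that cleave Eph receptors or ephrins, or bind the tail of B-type ephrins, included genes that rose and genes that fell. Of 22 listed, 18 were tested, of which 6 rose, 5 fell and 7 missed the threshold (median 0.05), beside the 19.8% and 21.6% of all tested genes. SDCBP, the PDZ protein syntenin, rose 1.34-fold from 93.9 ± 2.46 to 125 ± 3.16 CPM, PTPN13, a PDZ-containing phosphatase, rose 1.37-fold from 43.2 ± 3.72 to 59.8 ± 2.76 CPM, and MMP14, a membrane protease that cleaves EPHA2, rose 1.41-fold, MLL4WT standing at 18.7 ± 0.560 and MLL4KO at 26.5 ± 0.789 CPM (edgeR adjusted p between 2.9e-05 and 0.000228). PICK1, a PDZ protein, fell 1.41-fold, and APH1A, a subunit of gamma-secretase, fell 1.30-fold (edgeR adjusted p = 0.000194 and 0.000321).

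Of 17 other genes known, like EPHB2 and EPHB3, as targets of beta-catenin and TCF, 11 were tested, with 5 that rose, 4 that fell and 2 that missed the threshold (median 0.24), again beside 19.8% and 21.6% of all tested genes. AXIN2, the feedback inhibitor of the pathway, rose 1.60-fold from 12.2 ± 1.33 to 19.8 ± 1.43 CPM, and TNFRSF19 rose 5.40-fold, MLL4WT standing at a low 0.897 ± 0.402 and MLL4KO at 4.44 ± 0.0562 CPM (edgeR adjusted p = 0.00022 and 2.4e-05). NOTUM, a secreted inhibitor of WNT, rose 1.26-fold (edgeR adjusted p = 0.0148), and it missed the threshold on omission of MLL4WT replicate 2 or 3 or MLL4KO replicate 1 or 2 (edgeR adjusted p between 0.0507 and 0.0842). CD44 fell 1.51-fold from 247 ± 6.87 to 163 ± 5.76 CPM, SOX9 fell 1.76-fold from 97.3 ± 12.1 to 54.6 ± 0.742 CPM and TCF7 fell 1.42-fold, MLL4WT standing at 48.7 ± 1.40 and MLL4KO at 34.3 ± 0.481 CPM (edgeR adjusted p between 1.4e-06 and 3.75e-05). The number that rose ranged from 2, on omission of MLL4WT replicate 3 or MLL4KO replicate 2, to 7 over the alternatives, while 4 fell in each. LGR5 and ASCL2, markers of crypt stem cells, were too low to be tested.

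**Figure D5:**
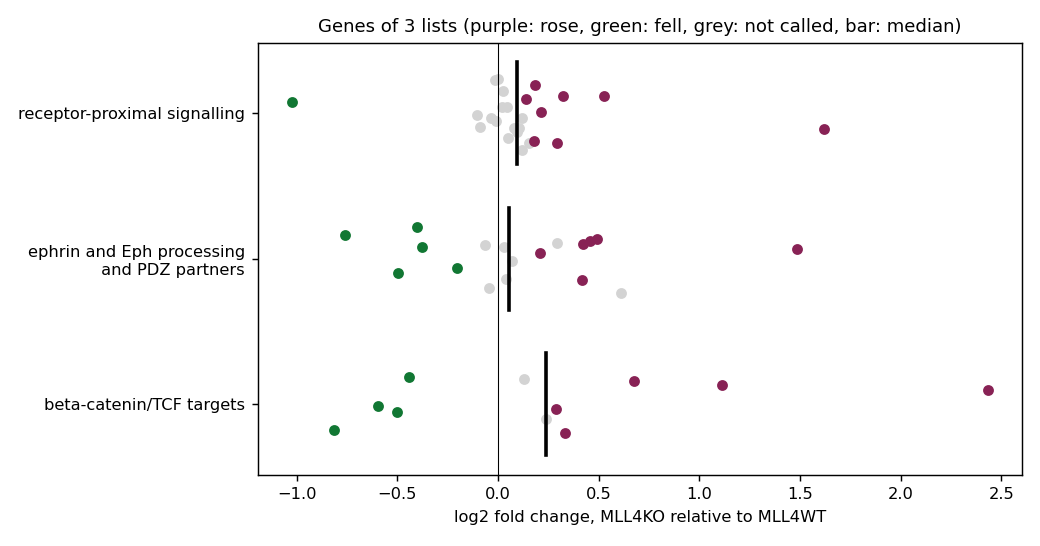
Log2 fold change (horizontal axis) of the tested genes of 3 lists around the Eph pathway, 1 point per gene, with a black bar at the median of each list. Medians lie between 0.05 and 0.24, and each list has genes that rose and genes that fell.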

How the data were processed

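RNA of 6 HCT116 libraries was measured by poly(A) RNA-seq. The deposited values are expected counts per Ensembl gene ID, given as whole numbers and not normalised. The tools listed in the submitters' processing notes are Salmon (1.8.0) and DESeq2 (1.44.0), with hg38 as the build, but which step each one served and the annotation release were not given in the sources used here. Library preparation is not said to keep strand. Genes were filtered with filterByExpr, scaled by TMM and tested with the robust quasi-likelihood test of edgeR 4.0.16 in R 4.3.3 (no covariate, 4 residual degrees of freedom). Within-library ratios used an exact permutation test in scipy 1.17.1. Gene positions and exonic lengths came from GENCODE release 29 on GRCh38, symbols from a table of gene names and promoters from RefSeq. Alternatives used DESeq2 1.42.0 and limma 3.58.1 (voom), other scalings and filters, a replicate block and the codes in the column names. The others were thinning, GC and length trends (lowess span 0.3) and omission of each library. The codes were read as flow cells from their form only. The gene test was checked on simulated data. Genes, lists and tests were chosen with earlier results of these data known. Named genes are all 10, the tested family genes, up to 3 called genes per direction of each list and the neighbours of EFNA1 and EFNA4. Some results of the gene lists are not reported here.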

Additional observations from a re-analysis of the deposited data

How the results depend on the processing

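EPHA2, EPHB2, EPHB3, EFNB1 and EFNB2 kept their direction and their call under all 17 alternatives, with log2 fold changes of -1.17 to -1.04, 0.53 to 0.73, 0.69 to 1.03, 0.34 to 0.57 and 0.39 to 0.48. EPHA1 kept its direction (0.19 to 0.39) and lost its call in 11. EPHB4 stayed uncalled and negative (-0.18 to -0.05).

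The count of the 10 genes that rose was 4 or 5 and that of the genes that fell was 1 under every alternative. Over all tested genes the alternatives gave 2163 to 3706 that rose and 2316 to 3986 that fell. Without any 1 library, 4 of the 10 genes rose and 1 fell. On these omissions 2163 to 3521 of all tested genes rose and 2316 to 3822 fell. Some values turned sign, none of them called. EFNA1 did so with a term for the column-name codes (-0.10), where MLL4WT replicate 1 is alone in its code. It also did so on omission of MLL4WT replicate 1 or MLL4KO replicate 3 (-0.060 to 0.26 over the 6 omissions). EFNA4 turned with GC and length trends removed (0.059), and EPHA10 at the depth of the shallowest library (0.051). EFNA3 turned with total counts (0.022), upper quartile factors (0.014), the code term (0.048) and GC and length trends removed (0.13). It also turned on omission of MLL4WT replicate 1 or MLL4KO replicate 2 (-0.092 to 0.049 over the 6 omissions). The cause was not tested. Same-numbered libraries of the 2 genotypes did not deviate together (correlations of 0.02, 0.03 and -0.01). These values cannot show whether such libraries were prepared together, and the labels do not say that the numbers pair them. With the replicate number as a block, 4 of the 10 genes rose and 1 fell, EPHA1 having an edgeR adjusted p of 0.0752, and over all genes 2689 rose and 3024 fell.

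The ratio differences kept their sign without any 1 library and with 0.5 added to the counts. MLL4WT replicate 1, the shallowest library, limits EFNA1 and EPHA1, with 21 and 44 counts there.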
